A study of Homo sapiens with 6 samples.

Results

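The enzymes that take up glucose, break it down to pyruvate and lactate, and store or release it as glycogen were followed in human neurons before and after β-adrenergic stimulation. The set holds 36 genes, chosen by symbol from a list of glycolysis and glycogen genes and not by their values, out of 19823 genes in the table. Earlier results of these data were known when the list was chosen. All 36 were present and 35 passed the filter on low counts (more than 5 reads in at least 4 samples), which left 18130 genes in all. HK2, a hexokinase, had 1, 2 and 7 reads in the untreated samples and 1, 1 and 2 reads in the treated samples, so it was not tested.

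The RNA-seq data come from WTc11-derived glutamatergic excitatory neurons (iNeurons), obtained from a human induced pluripotent stem cell line. Every sample carried an RBM12 knockdown, and 3 samples were untreated while 3 received isoproterenol (Iso), a synthetic agonist of β-adrenergic receptors. The labels state no dose or duration for these libraries, and neurons with intact RBM12 are not analysed here, so the contrast shows the Iso response within depleted neurons. The study's methods describe neurons made by inducible expression of NGN2, with RBM12 silenced by CRISPR interference, and nothing says that the numbered replicates came from separate differentiations, so p-values measure the spread between these samples, which may be technical.

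Reads recovered from the deposited values numbered between 18116816 and 21488793 per sample. RBM12 itself, an RNA-binding protein, ranged from 195 to 279 normalized counts over the 6 samples, which checks neither label because both groups carry the knockdown. All 12 neuron markers of the list were measured. Their summed level ran from 685575 to 730560 normalized counts in the untreated samples and from 668657 to 684683 after Iso, ranges that did not overlap. Most of the 12 are general to neurons, so the sum does not test glutamatergic identity. The neurofilament genes NEFL and NEFM made up 75.9% to 77.6% of this sum, and the other 10 markers summed to between 161474 and 163466 untreated and between 160486 and 164199 after Iso, ranges that overlapped. The median log2 change of the 12 markers was 0.0022. With the replicate number as a block, a fit described further on, NEFL and SYT1 passed as lower by 0.05 and 0.08 on the log2 scale (limma adjusted p = 0.000268 and 0.00102), and neither passed in DESeq2 with the block (0.753 and 0.236). NEFM had the largest fall of the 12 markers, from a mean of 260503 to 236361 normalized counts. Its log2 change was -0.14 and it was lower in all 3 pairs, while its groups overlapped. The tools differed on NEFM: blocked fits gave an adjusted p of 0.326 in limma, 6.46e-11 in edgeR and 0.0816 in DESeq2. For NEFL and SYT1 the blocked edgeR values were 0.0817 and 0.00505. Of 7 astrocyte markers, 3 were in the table and summed to between 3026 and 3469, while the defining markers GFAP, ALDH1L1, SLC1A3 and GJA1 are not analysed here. Of the pluripotency list, 2 of 6 markers were in the table, with a sum of 14.4 to 28.8, and of the oligodendrocyte list 3 of 5, with a sum of 949 to 984 untreated and 1015 to 1102 after Iso. The neural progenitor sum was 9010 to 9474 for 5 of 5 markers, the proliferation sum was 112 to 147 for 1 of 6, and none of the 5 microglia markers are analysed here. The part of cell composition in the results was not tested, and in bulk RNA fewer cells of a type and less RNA per cell cannot be told apart.

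Glycolysis splits glucose into pyruvate through a fixed series of cytosolic enzymes, with its pace set largely by hexokinase, phosphofructokinase and pyruvate kinase. Pyruvate is then reduced to lactate or passes into mitochondria through the pyruvate dehydrogenase complex, which pyruvate dehydrogenase kinases shut by phosphorylation. In liver, heart and muscle, β-adrenergic receptors raise cAMP, and protein kinase A then activates phosphorylase kinase and glycogen phosphorylase while restraining glycogen synthase. Those steps act on proteins already made. Neurons hold little glycogen and take much of their ATP from glucose, and whether the transcripts of this machinery move with Iso is the question the contrast addresses here.

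The glycolytic transcripts were abundant and the glycogen transcripts were, with 1 exception, modest. Together the 36 genes held between 0.677% and 0.708% of all normalized counts in each sample. GAPDH, the glyceraldehyde phosphate dehydrogenase widely used as a reference gene, made up 22.1% to 23.8% of that share. Per kilobase of annotated exon, GAPDH stood at 13841 normalized counts, in the top 0.138% of tested genes. Its level has the limit that 65 annotated pseudogenes carry its name, 9 of them in the table with a summed mean of 539 normalized counts.

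Next in order came ENO2, the neuron-enriched enolase, at 4895 counts per kilobase, and TPI1, triosephosphate isomerase, at 2163. ENO1 (enolase 1), HK1 (the main brain hexokinase), PKM (pyruvate kinase) and PGAM1 (phosphoglycerate mutase) followed at 1662, 1616, 1548 and 1509 counts per kilobase. The order of these 4 genes was not set apart from their spread, since the ranges over the 6 samples, from 1384 for the lowest PGAM1 sample to 1766 for the highest ENO1 sample, overlapped from each gene to the next. The exception among glycogen genes was PYGB, the brain form of glycogen phosphorylase, at 1413 counts per kilobase. PYGL, the liver form, was at 8.06, the lowest of the tested genes of the set, and the per-kilobase ratio of PYGB to PYGL lay between 162 and 191 in every sample.

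Among the enzymes that come in several forms, each sample had the same order per kilobase. The lengths count every annotated exon of a gene, whether or not it was expressed, which limits any order between genes. HK1 carried 9449 to 11195 reads per sample against at most 7 for HK2. Of the phosphofructokinase subunits, PFKM (muscle type) stood at 799 counts per kilobase, PFKP (platelet type) at 449 and PFKL (liver type) at 281. ENO2 exceeded ENO1 by a factor that left ENO1 at 0.318 to 0.353 of ENO2 per kilobase.

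Of the PFKFB enzymes, which make and remove fructose 2,6-bisphosphate, the strongest allosteric activator of phosphofructokinase, PFKFB3 stood at 208 counts per kilobase, PFKFB4 at 88.5 and PFKFB2 at 21.1. SLC2A3, the neuronal glucose transporter, stood at 322 and SLC2A1, the transporter of the blood-brain barrier and of many other cells, at 103. The pyruvate dehydrogenase kinases were ordered PDK2 (94.0), PDK3 (36.8) and PDK1 (21.2 counts per kilobase). The place of PDK2 above PDK3 rests on their annotated exon lengths of 5471 and 17456 bases. In normalized counts PDK3 (mean 642) exceeded PDK2 (mean 515) in every sample. Exonic sequence that PDK2 shares with SAMD14 on the other strand (2113 bases) leaves its level uncertain, because the strand setting of the counting is not given in the sources used here.

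**Figure D1:**
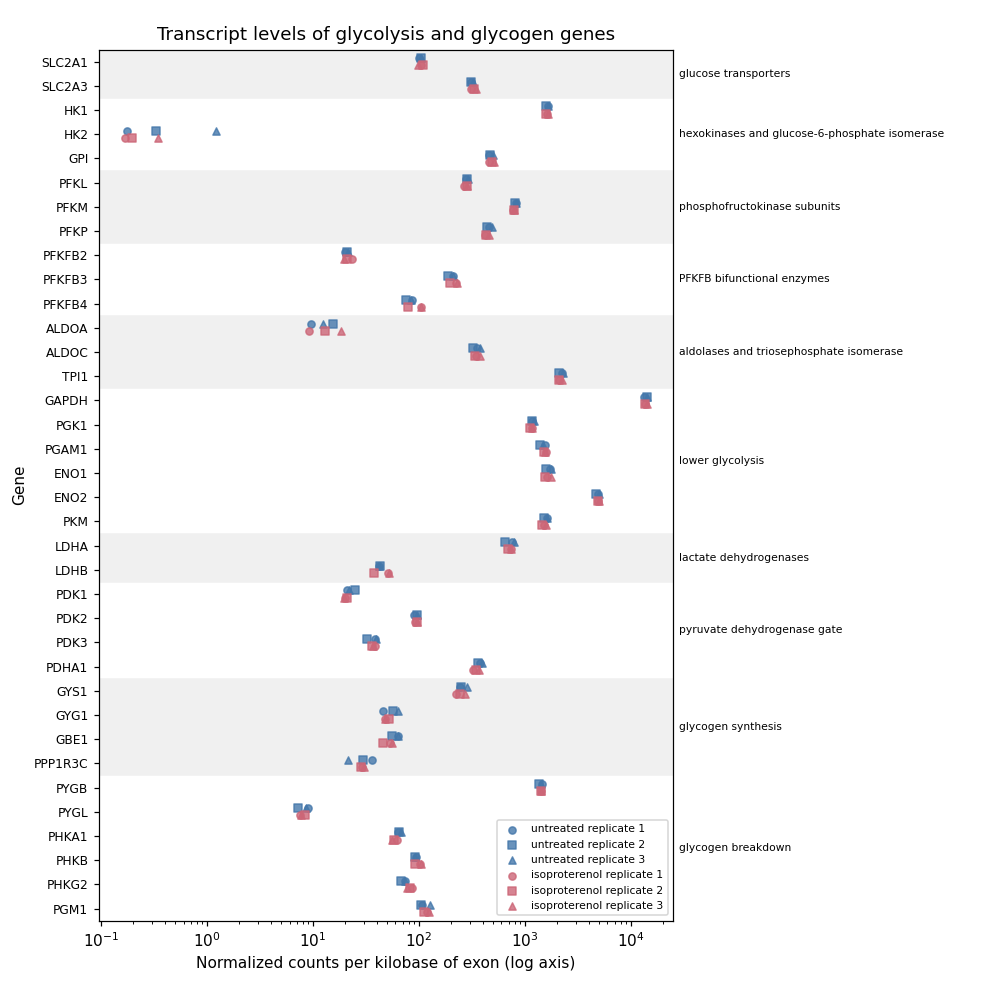
Normalized counts per kilobase of exon (horizontal log axis) of the 36 genes, grouped by role, with blue symbols for the 3 untreated and red symbols for the 3 isoproterenol samples and a symbol shape for each replicate number. GAPDH stands highest at 13841 and HK2 lowest, and for nearly every gene the 6 samples lie close together beside the distance between genes.

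The values of 2 genes cannot be read as levels. ALDOA, the main aldolase of most tissues, had 34.9 to 69.8 normalized counts, and 92.9% of its coding bases lie inside a second annotated gene on the same strand, AC093512.2, which had a mean of 25.1. LDHB, the lactate dehydrogenase of heart and neurons, had 113 to 156 normalized counts, with 92.2% of its coding bases shared with another gene annotated on the same strand. That other gene is not in the table, so whether it took part in the counting, and whether LDHB is truly low, is not known. Reads that fall in 2 genes are commonly set aside in counting, but how they were handled is not given in the sources used here. The ALDOA to ALDOC and LDHA to LDHB ratios are therefore not interpreted. LDHA, the lactate dehydrogenase favored in glycolytic cells, stood at 726 counts per kilobase and ALDOC, the brain aldolase, at 352.

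With Iso, no member passed the test in the fit without pairing, and the fitted changes were small on both sides of 0. In the limma fit without pairing, 0 of 35 members passed a false discovery rate (FDR) of 0.05, against 3 of 18130 genes in all (0.0165%). At an unadjusted p under 0.05 there were 4 members (PHKG2, GBE1, PDHA1 and PFKFB4), against 7.68% of all genes. Without the block, edgeR and DESeq2 also called 0 members at FDR 0.05, and 4 and 2 members had an unadjusted p under 0.05. The median log2 fold change of the members was 0.0016, with 18 above 0 and 17 below, and the median over all genes was 0.0015. The members ran from -0.24 (GBE1) to 0.22 (PFKFB4), and their median absolute change was 0.065, against 0.087 for all genes.

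In the fit without pairing, the precision behind these values was high for the abundant enzymes. All intervals given here are from that fit. Leaving aside ALDOA and LDHB, the 95% interval of the change lay within 5% either way for 1 of 33 genes, GAPDH, with an interval from -4.64% to 4.59%. It lay within 10% for 11 genes, among them HK1, GPI (glucose phosphate isomerase), PFKM, TPI1, PGK1, ENO1, ENO2, PKM and PYGB, and within 20% for 24. For the scarce transcripts the data bound little. The interval ran from -31.8% to 32.5% for PYGL, and from -22.2% to 36.8% for PPP1R3C, a subunit that brings protein phosphatase to glycogen. For HK2 no interval could be given.

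**Figure D2:**
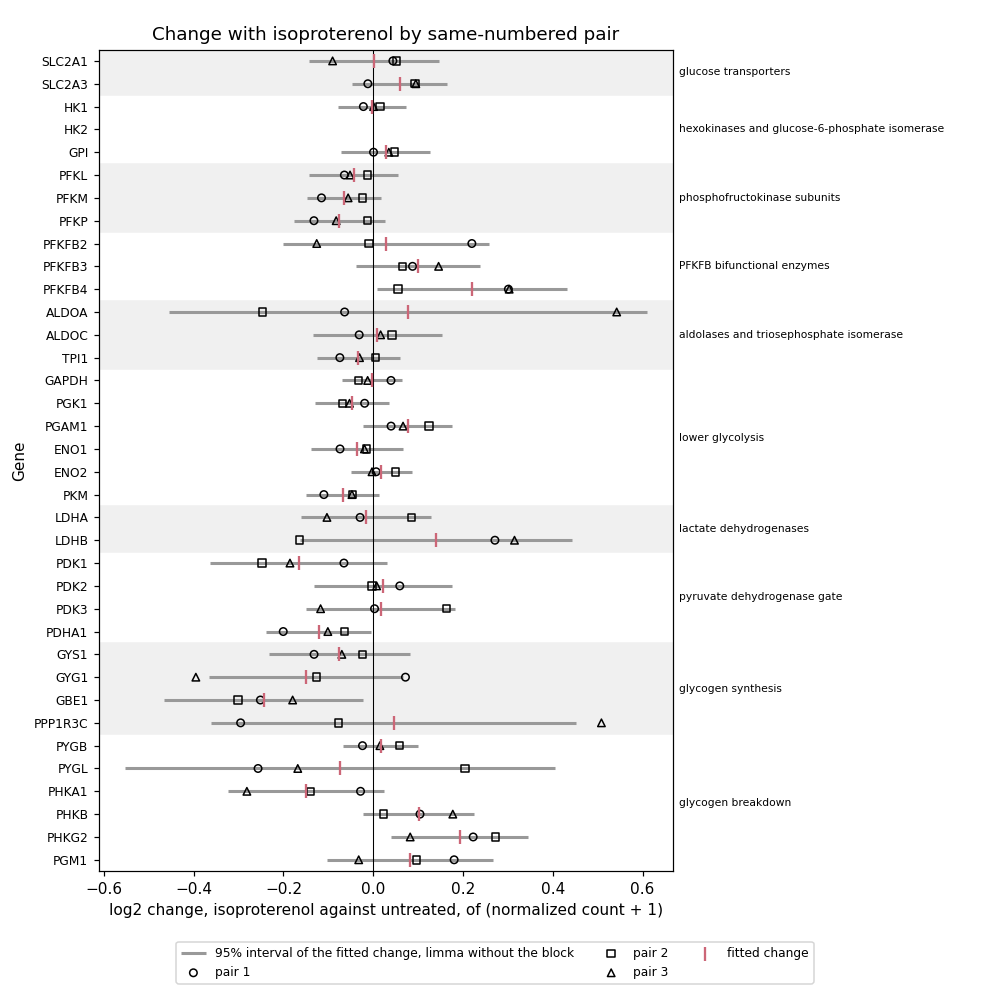
log2 change with isoproterenol for the 35 tested genes, by role, with an open symbol for each same-numbered pair, a red tick for the fitted change and a gray bar for its 95% interval in the fit without pairing. Most bars cross 0, the fitted changes lie between -0.24 and 0.22, and ALDOA, PPP1R3C and PYGL have the widest bars.

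Same-numbered samples of both groups deviated together, so the contrast was also fitted with the replicate number as a block. In this fit 3 members passed FDR 0.05, PFKFB4 as higher and PKM and PDHA1 as lower, against a background of 885 of all genes (4.88%; 2.82% higher and 2.06% lower). At an unadjusted p under 0.05 there were 10 members, against 16.2% of all genes. The same count of 3 came from edgeR with the block, where 5.39% of all genes passed, and DESeq2 with the block called 0 members, 3 of which had an unadjusted p under 0.05, and 0.789% of all genes. A share of 3 in 35 members rests on few genes, and each of the 3 calls was lost when at least 1 pair was left out.

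PFKFB4 (chr3:48517684-48562015, GRCh38, minus strand) encodes a bifunctional enzyme known as hypoxia-inducible. It had 519, 461 and 512 normalized counts without Iso and 640, 479 and 632 with it, in the order of replicates 1 to 3 here and below. The groups overlapped, because Iso replicate 2 lay below untreated replicates 1 and 3, yet each Iso sample was above its own pair. The means were 497 ± 31.9 and 583 ± 90.8 (SD, n = 3 each). The log2 fold change was 0.22 ± 0.10 (SE) without the block (limma adjusted p = 0.632) and 0.22 ± 0.067 with it (limma adjusted p = 0.0349). The within-pair changes were 0.30, 0.06 and 0.30 on the log2 scale, so pairs 1 and 3 carried the difference. Without pair 1 or pair 3 the blocked limma adjusted p was 0.284 or 0.320, and without pair 2 it was 0.00528. With no block, the change was 0.15 without Iso replicate 1 and 0.36 without Iso replicate 2. PFKFB4 shares 298 exonic bases with UCN2 on the same strand, a gene with a mean of 28.3 normalized counts.

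PDHA1 (chrX:19343893-19361718, plus strand) encodes the catalytic α subunit of pyruvate dehydrogenase, the target of the PDK kinases. It had 1846, 1771 and 1938 normalized counts untreated and 1606, 1694 and 1806 after Iso. Each Iso sample lay below its pair, while Iso replicate 3 lay above untreated replicate 2. The means were 1851 ± 83.5 and 1702 ± 100.2 (SD, n = 3 each), a log2 fold change of -0.12 ± 0.056 (SE; limma adjusted p = 0.629) that passed only with the block (limma adjusted p = 0.0481). It was lost without pair 1 (adjusted p = 0.467) or pair 3 (0.155) and held without pair 2 (0.0447, blocked limma). With no block, the change was -0.08 without Iso replicate 1. On the other strand 956 exonic bases are shared with MAP3K15, which had a mean of 24.8 normalized counts.

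PKM (chr15:72199029-72231819, minus strand), pyruvate kinase of the last step of glycolysis, had 13871, 12945 and 13918 normalized counts untreated and 12853, 12538 and 13467 after Iso. The shift was small beside the level, and again each Iso sample was below its pair, by 0.11, 0.05 and 0.05 on the log2 scale. The means were 13578 ± 549 and 12953 ± 472 (SD, n = 3 each), a change of -0.07 ± 0.039 without the block (limma adjusted p = 0.713) and -0.07 ± 0.020 with it (limma adjusted p = 0.0289). Leaving out any 1 pair lost the call, with blocked adjusted p from 0.0532 to 0.444. With no block, the change was -0.10 without untreated replicate 2 and -0.04 without Iso replicate 2. The table gives 1 value per gene, so the M1 and M2 splice forms of PKM were not told apart.

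**Figure D3:**
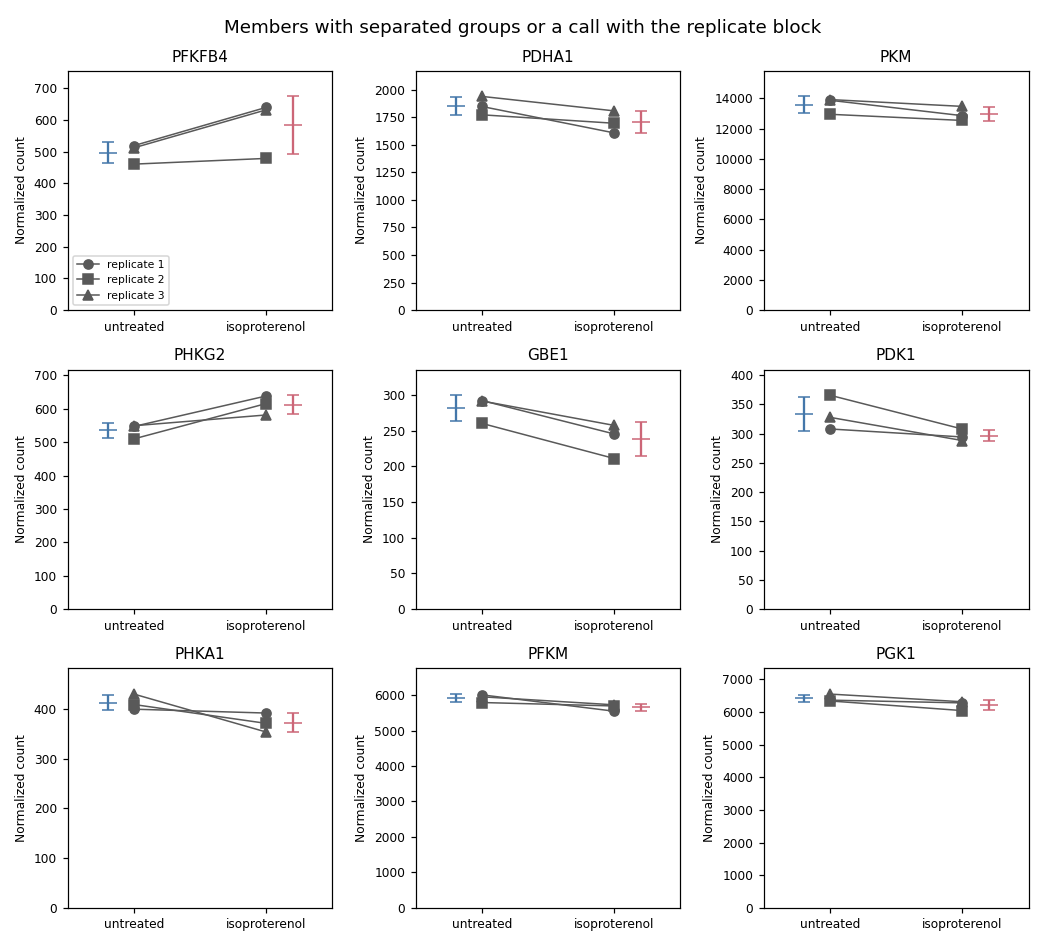
Normalized counts of the 9 genes that were called with the block or whose groups did not overlap, on axes that start at 0, with a line and symbol for each same-numbered pair and, beside them, the mean and SD of the 3 untreated (blue) and the 3 isoproterenol samples (red). PFKFB4 and PHKG2 slope upward in all 3 pairs and the other 7 slope downward in all 3, by small amounts beside their level.

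In 6 members the 3 Iso values did not overlap the 3 untreated values, 1 higher and 5 lower. Over all genes 12.9% were separated in this way (6.73% higher and 6.19% lower), and 6 of 35 members is a share near that background. By direction, 5 of 35 lower stands above its background share and 1 of 35 higher below it, and no test was made of this. None of these 6 genes passed FDR 0.05 in either limma fit. They are given here for their values.

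PHKG2 was the separated gene with higher values. It encodes the catalytic subunit of phosphorylase kinase in liver and other tissues, the step between protein kinase A and glycogen phosphorylase. It had 547, 510 and 549 normalized counts untreated and 639, 616 and 582 after Iso, so the lowest Iso sample exceeded the highest untreated one by a margin smaller than the range within either group. The log2 difference was 0.19 ± 0.073 (SE), with a limma adjusted p of 0.553 without the block and 0.0642 with it. PHKG2 shares 1568 exonic bases, 20.9% of its exons, with CCDC189 on the other strand, a gene with a mean of 84.6 normalized counts, and 587 bases with a noncoding gene on the same strand.

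PHKA1, a regulatory α subunit of the same kinase, lay on the other side. It had 400, 409 and 430 normalized counts untreated and 392, 371 and 354 after Iso, a log2 difference of -0.15 ± 0.083 (SE; limma adjusted p = 0.700, or 0.324 with the block). PHKB, the β subunit, was at 1097 ± 20.7 and 1178 ± 71.2 normalized counts (SD, n = 3 each), with overlapping groups. PHKA2, the other α subunit gene, was at 315 ± 14.0 untreated and 344 ± 19.1 normalized counts after Iso (SD, n = 3 each), with no overlap. Its log2 difference of 0.13 did not pass (limma adjusted p = 0.780, or 0.495 with the block). PHKA1 thus went against PHKG2, PHKB and PHKA2, and none of these differences passed the test.

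GBE1, the glycogen branching enzyme, had the most negative fitted change of the members. It had 292, 260 and 292 normalized counts untreated and 245, 211 and 257 after Iso, with every Iso sample below every untreated one. The log2 difference was -0.24 ± 0.11 (SE; limma adjusted p = 0.605, or 0.127 with the block), and the pairs differed by -0.25, -0.30 and -0.18. Its 95% interval without the block ran from -27.6% to -1.52%, and without Iso replicate 2 the log2 difference was -0.16.

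PDK1, a kinase that switches pyruvate dehydrogenase off, had 308, 366 and 328 normalized counts untreated and 294, 308 and 288 after Iso. The gap between the groups was under 1 count, between untreated replicate 1 and Iso replicate 2, and the log2 difference was -0.17 ± 0.094 (SE; limma adjusted p = 0.706), or -0.10 without untreated replicate 2. Against PDK2 of the same sample, PDK1 stood at ratios of 0.634, 0.699 and 0.626 untreated and 0.582, 0.589 and 0.548 after Iso. This was the only one of 13 isozyme ratios in which the groups did not overlap, and its exact permutation test (two-sided) gave p = 0.1, the least that a comparison of 3 with 3 can reach, or 0.812 after adjustment over the 13 ratios.

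The remaining separated genes belong to the main glycolytic line. PFKM had 6009, 5793 and 5954 normalized counts untreated and 5548, 5696 and 5728 after Iso, a log2 difference of -0.07 ± 0.039 (SE; limma adjusted p = 0.730). PGK1, phosphoglycerate kinase, had 6364, 6340 and 6550 normalized counts untreated and 6280, 6044 and 6315 after Iso, a log2 difference of -0.05 ± 0.039 (SE; limma adjusted p = 0.815), or -0.03 without Iso replicate 2. In both, the separation was narrow.

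By role, the 3 phosphofructokinase subunits were lower with Iso in all 3 pairs, with fitted changes of -0.04 for PFKL, -0.07 for PFKM and -0.08 for PFKP, and none passed FDR 0.05 in either fit. The 3 PFKFB enzymes had fitted changes above 0 (0.03 for PFKFB2, 0.10 for PFKFB3 and 0.22 for PFKFB4), of which 1 passed with the block. In lower glycolysis 2 of 6 changes were above 0 and 4 below, from -0.07 to 0.08. In glycogen synthesis 1 of 4 was above 0 and 3 below, from -0.24 to 0.05, and GYS1, the muscle-type glycogen synthase found in most tissues, was at 1102 ± 94.7 and 1047 ± 101 normalized counts (SD, n = 3 each). In glycogen breakdown 4 of 6 were above 0, from -0.15 to 0.19.

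The remaining roles moved little in the fits. The 2 glucose transporters had fitted changes of 0.0016 and 0.06, HK1 and GPI of -0.0019 and 0.03, and TPI1 and ALDOC of -0.03 and 0.01. LDHA was at 4408 ± 462 and 4346 ± 191 normalized counts (SD, n = 3 each), a change of -0.02. Counted over pairs, 6 members were higher in all 3 pairs and 11 lower in all 3, against 18.5% and 17.6% of all genes. The count of 11 in 35 stands above its background share, but the members are not independent of each other and no test was made of it.

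The replicate numbers had a pattern in these genes, though not in them alone. In 15 of the 35 members (42.9%) replicate 2 was the lowest sample of both groups, against 17.0% of all genes. This was noticed after the values were seen and is given as a description with no test. Replicate 3 was the lowest of both groups in 0 members and the highest of both in 13. Without ALDOA and LDHB the count was again 15, of 33 genes.

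Among the 15 members lowest in replicate 2, its gap below the mean of the other replicates was largest for PFKFB4 (-0.29 on the log2 scale), GBE1 (-0.21), LDHA (-0.19) and PFKFB3 (-0.18). It was -0.13 for ENO1. The median over the members was -0.053, against -4.4e-05 for all genes. For LDHA, the untreated samples had 4560, 3889 and 4774 normalized counts and the Iso samples 4468, 4126 and 4445. In 27 of the 35 members (77.1%) the range over the 3 replicate numbers exceeded the difference between the 2 groups, and over all genes the share was 76.6%.

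**Figure D4:**
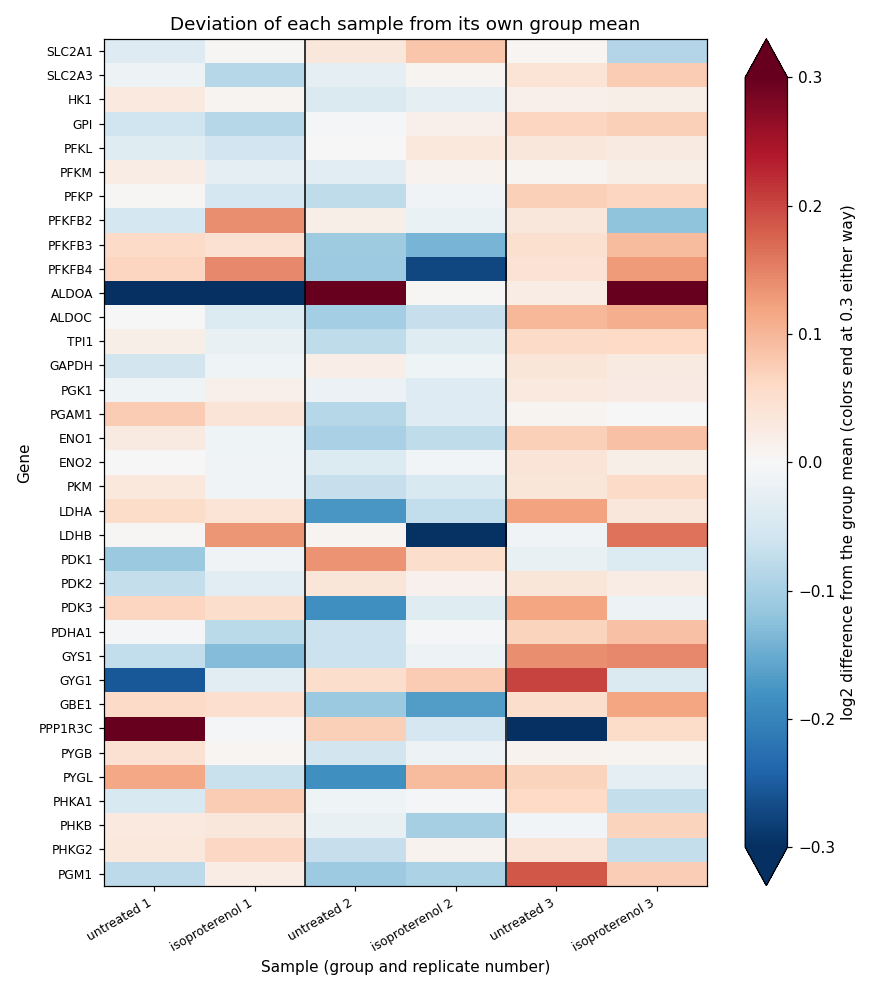
log2 difference of each sample from the mean of its own group, for the 35 tested genes (rows) and the 6 samples (columns, arranged by replicate number), with red above and blue below the group mean and colors ending at 0.3. The middle pair of columns, replicate 2 of each group, is blue in most rows, and the right pair, replicate 3, is red in most.

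The promoters of the called genes were read to show the DNA in which cAMP-responsive and hypoxia-responsive elements would lie. CREB, the transcription factor activated by protein kinase A, binds the cAMP response element (CRE), TGACGTCA, or its half-site TGACG. Hypoxia-inducible factors, which control many glycolytic genes, bind elements with the core ACGTG or GCGTG. RefSeq promoters (GRCh38.p14, 250 bases before to 50 after the start of a gene) were matched by symbol for 34 of the 36 members. The RefSeq start of PFKFB4 lies inside the span that GENCODE gives the gene. The sequences below are those of the 3 genes called with the block, of LDHA as the only member with a full CRE, and of TXNIP, a regulator described further on. They run 5′ to 3′ on the strand of the gene, and capitals mark the CRE letters and both hypoxia cores on either strand, overlapping matches included.
PFKFB4 (chr3:48556754-48557053, minus strand): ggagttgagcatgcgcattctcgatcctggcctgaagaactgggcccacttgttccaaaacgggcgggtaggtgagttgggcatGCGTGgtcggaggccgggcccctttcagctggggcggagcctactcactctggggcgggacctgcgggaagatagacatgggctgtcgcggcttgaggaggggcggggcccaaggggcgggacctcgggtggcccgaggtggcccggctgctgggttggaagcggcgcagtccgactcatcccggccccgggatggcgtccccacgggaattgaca
PDHA1 (chrX:19343677-19343976, plus strand): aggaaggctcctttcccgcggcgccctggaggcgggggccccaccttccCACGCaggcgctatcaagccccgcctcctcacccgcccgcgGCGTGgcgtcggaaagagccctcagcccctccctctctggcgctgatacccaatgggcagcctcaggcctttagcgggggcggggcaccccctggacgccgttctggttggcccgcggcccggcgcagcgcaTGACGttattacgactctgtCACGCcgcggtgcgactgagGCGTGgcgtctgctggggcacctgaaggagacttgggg
PKM (chr15:72231141-72231440, minus strand): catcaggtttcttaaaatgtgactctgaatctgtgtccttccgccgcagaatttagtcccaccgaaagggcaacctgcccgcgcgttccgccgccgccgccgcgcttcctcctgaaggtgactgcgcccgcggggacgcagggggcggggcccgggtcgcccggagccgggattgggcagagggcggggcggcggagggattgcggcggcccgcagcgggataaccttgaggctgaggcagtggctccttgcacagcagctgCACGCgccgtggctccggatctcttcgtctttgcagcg
LDHA (chr11:18394313-18394612, plus strand): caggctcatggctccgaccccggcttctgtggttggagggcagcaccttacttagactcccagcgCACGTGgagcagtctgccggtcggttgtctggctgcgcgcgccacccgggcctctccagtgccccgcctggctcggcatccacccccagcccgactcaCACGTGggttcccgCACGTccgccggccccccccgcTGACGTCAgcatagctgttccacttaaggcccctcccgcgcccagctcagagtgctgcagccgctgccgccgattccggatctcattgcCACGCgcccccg
TXNIP (chr1:145996530-145996829, minus strand): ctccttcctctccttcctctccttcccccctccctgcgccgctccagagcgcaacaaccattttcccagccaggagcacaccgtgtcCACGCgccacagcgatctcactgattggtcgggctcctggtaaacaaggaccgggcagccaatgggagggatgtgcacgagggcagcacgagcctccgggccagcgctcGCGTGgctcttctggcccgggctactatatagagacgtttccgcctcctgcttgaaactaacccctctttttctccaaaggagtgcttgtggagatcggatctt

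Of the 34 member promoters, 1 held the full CRE (2.94%), against 1.98% of all 27305 promoters and 3.16% of the 11682 that belong to tested genes. The half-site was found in 10 (29.4%), against 25% and 33.5%. In LDHA the full CRE starts at -51, counted from the start of the gene, and LDHA was at a log2 change of -0.02 with Iso. PFKFB4 and PKM, which went in opposite directions, hold neither the CRE nor its half-site in this window, and PDHA1 has a half-site at -28.

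A hypoxia core lay in 25 of the 34 member promoters (73.5%), against 48.4% of all promoters and 62.0% of those of tested genes. The palindrome CACGTG, which overlaps that core and is also the E-box bound by MYC and by ChREBP relatives, lay in 5 (14.7%), against 7.43% and 9.91%. LDHA holds CACGTG 2 times, at -185 and -87. A match of letters is a description of the sequence and does not show that a factor is bound.

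Genes next to the set in the same pathways were taken from lists written with earlier results of these data known. None of the 93 tested passed FDR 0.05 without the block in limma, edgeR or DESeq2. At an unadjusted limma p under 0.05 there were 12 of 93 without the block, against 7.68% of all genes. With the block there were 18 of 93, against 16.2% of all genes. At FDR 0.05 with the block, 2 of 10 other glycolytic enzymes, 1 of 8 other glycogen breakdown genes, 1 of 12 glycolytic regulators and 1 of 16 hypoxia-inducible genes passed. These 5 of 93 genes are a share of 5.38%, near the 4.88% of all genes. In the lists for glucose entry (10 tested), lactate and pyruvate handling (14), glycogen synthesis (12), gluconeogenesis (3) and the pentose phosphate pathway (8), 0 genes passed in either limma fit or in edgeR and DESeq2 with or without the block, and at an unadjusted limma p under 0.05 there were 4 of 47 (8.51%) without and 8 of 47 (17.0%) with the block, near the 7.68% and 16.2% of all genes. Median changes of the 9 lists lay between -0.03 and 0.08, beside 0.0015 for all genes.

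TXNIP was the called glycolytic regulator. Its product binds and internalizes glucose transporters, and its transcription follows glucose metabolites through the MondoA factor. TXNIP had 156, 397 and 154 normalized counts untreated and 91.8, 264 and 86.2 after Iso. Replicate 2 was the highest of both groups, so the groups overlapped, while every pair went down, by 0.75, 0.59 and 0.83 on the log2 scale.

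The fitted change of TXNIP was -0.72 ± 0.66 (SE) without the block (limma adjusted p = 0.857) and -0.72 ± 0.12 with it (limma adjusted p = 2.57e-06). It fell in the blocked fits of edgeR and DESeq2 too (adjusted p = 6.63e-07 and 0.00819), and in blocked limma without any 1 pair, with adjusted p at most 0.000401. Without the block, leaving out 1 sample moved the change between -1.24 and -0.27. ARRDC4, a related arrestin-domain gene with the same regulator, was at 236, 255 and 238 untreated and 219, 232 and 208 normalized counts after Iso, a log2 difference of -0.15 that did not pass (blocked limma adjusted p = 0.504). It was picked out after its values were seen.

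Calmodulin is a permanent subunit of phosphorylase kinase as well as a general calcium sensor, and its genes CALM2 and CALM3 were tested with the glycogen breakdown list. CALM2 had 24891, 24194 and 23868 normalized counts untreated and 21998, 23251 and 21257 after Iso, with no overlap. It fell by 0.13 on the log2 scale in the blocked fit (limma adjusted p = 2.45e-08; 0.273 without the block), and the call held without any 1 pair and in DESeq2 with the block (adjusted p = 0.00429). Without Iso replicate 2 it also passed with no block (limma adjusted p = 0.0407).

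CALM3 was at 36453 ± 927 and 36934 ± 291 normalized counts (SD, n = 3 each), a change of 0.02 that did not pass (blocked limma adjusted p = 0.595). Both genes encode the same protein, and CALM2 has 4 named pseudogenes, 2 of them in the table.

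ENO3, the muscle enolase, had 621, 519 and 539 normalized counts untreated and 644, 674 and 655 after Iso. It was higher by 0.24 ± 0.064 (SE) with the block (limma adjusted p = 0.0121; 0.446 without), and the call was lost without pair 2 (0.252) or pair 3 (0.121) and in DESeq2 with the block (adjusted p = 0.550). ENO4, a sperm-associated enolase relative, had 8.35, 11.6 and 24.8 normalized counts untreated and 31.9, 25.4 and 28.7 after Iso, a log2 change of 1.03 (blocked limma adjusted p = 0.0493). Its exons share 1087 bases with SHTN1 on the other strand, a gene with a mean of 4106 normalized counts, and its call was lost with edgeR (blocked adjusted p = 0.0813). In blocked limma it was also lost without pair 1 (a change of 0.63, adjusted p = 0.537) or pair 2 (adjusted p = 0.155), and DESeq2 with the block gave no adjusted p.

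VEGFA, the hypoxia-inducible angiogenic factor, had 433, 411 and 436 normalized counts untreated and 459, 464 and 598 after Iso, with no overlap. It was higher by 0.24 ± 0.073 (SE) with the block (limma adjusted p = 0.0350; 0.588 without), and without pair 3 the change was 0.13 and the call was lost (0.606), as it was in DESeq2 with the block (adjusted p = 0.697). The other 15 tested genes of the hypoxia list did not pass, and HIF1A, the factor itself, was at 2740 ± 112 and 2813 ± 142 normalized counts (SD, n = 3 each). PCK1, a known cAMP target in liver, and PDK4 and PHKG1 are not analysed here.

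**Figure D5:**
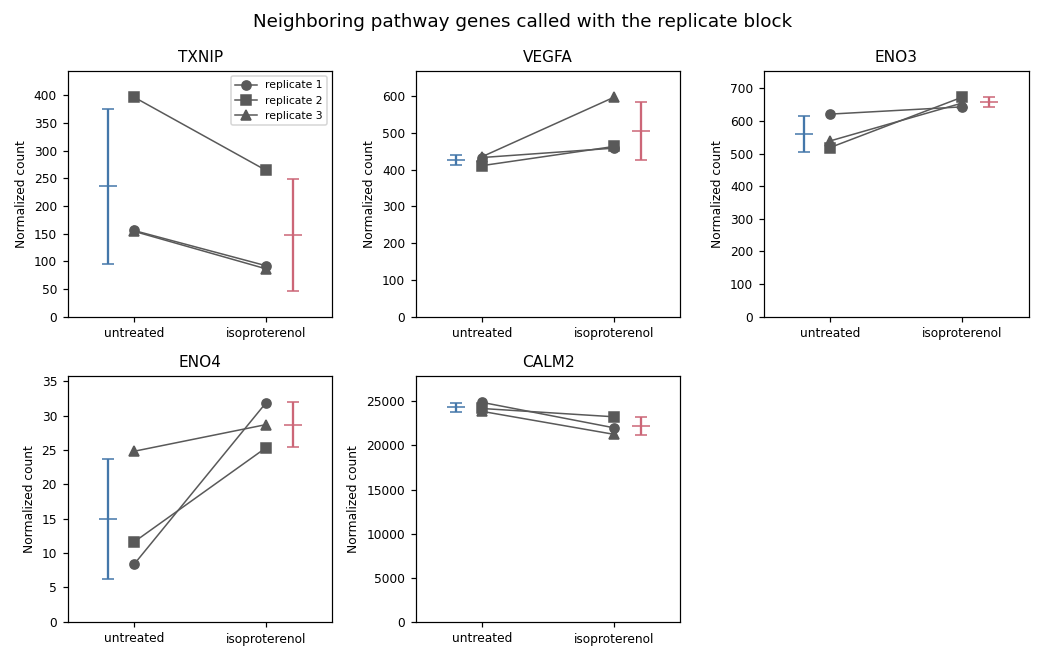
Normalized counts of 5 neighboring pathway genes called with the block, on axes that start at 0, with a line and symbol for each same-numbered pair and the mean and SD of the 3 untreated (blue) and 3 isoproterenol samples (red). TXNIP falls in each pair although replicate 2 stands above the others in both groups, and CALM2 differs by a small share of a high level.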

How the data were processed

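Poly(A) RNA-seq libraries were compared between 3 untreated and 3 isoproterenol samples. The authors aligned reads to GRCh38 (STAR in the study's methods) and counted them with featureCounts. Each deposited value is a signal, namely a read count over the DESeq2 size factor of its sample. Whole reads were recovered, to within 0.01 reads, for 100% of values above 0 in all 6 columns. Versions, annotation release and strand setting are not given in the sources used here.

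limma 3.58.1 (trend, robust; R 4.3.3) was fitted to log2(normalized count + 1) over 18130 genes with more than 5 reads in at least 4 samples. The test is two-sided with Benjamini-Hochberg adjustment over all genes, so fold changes of low genes are shrunk by the pseudocount. After subtraction of the group mean, samples that share a number correlated at 0.269, 0.493 and 0.388 (11587 genes), each above the limit of 0.1, so the replicate numbers in the labels were taken to pair the samples. Replicate number was a block in a further limma fit and in edgeR 4.0.16 and DESeq2 1.42.0 on recovered reads, which called 977 and 143 genes. Other scalings, pseudocounts, filters and left-out samples or pairs were also run. Scripts were tested on simulated data.

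Members and lists were chosen with earlier results of these data known. Named with values in every sample are members past FDR 0.05 in either limma fit or with groups that do not overlap, and up to 3 genes of each pathway list past FDR 0.05 in either limma fit. LDHA, ARRDC4 and PHKA2 were added after their values were seen. Positions, exon lengths and overlaps are from GENCODE 44 (GRCh38), which held 19742 of the 19823 identifiers. 1 gene of the glycogen breakdown list is not reported here.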

Additional observations from a re-analysis of the deposited data

How the results depend on the processing

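With no block, the count of all genes past FDR 0.05 was 2 to 4 in limma and edgeR and 21 in DESeq2, and it ranged from 2 to 67 when 1 sample was left out, the 67 without Iso replicate 2. With the replicate block it was 885 in limma, 977 in edgeR and 143 in DESeq2, and 531, 665 and 456 without pairs 1, 2 and 3. Members past FDR 0.05 numbered 0 with no block under every alternative run, and with it 3 in limma, 3 in edgeR, 0 in DESeq2, and 0, 2 and 0 without pairs 1, 2 and 3. Pairing by replicate number changed no other call of a member, and the cause of the differences between tools was not tested. The member median change ranged from -0.0242 to 0.0164 over left-out samples. Of 488 other member values, 460 kept their direction and call, 8 gained a call with the block and 20 changed sign, all 20 without a call.

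The 20 sign changes, on the log2 scale, were the following. SLC2A1 was at -0.000785 with TMM, -0.000864 and -0.000206 in edgeR without and with the block, -0.000519 and -0.000328 in DESeq2 likewise, and -0.0195 and -0.0234 in the block without pairs 1 and 2. Total-count scaling gave 0.00178 for HK1 and 0.00183 for GAPDH. In the block without pair 1, HK1 was at 0.00809, PFKFB2 at -0.0679 and PYGL at 0.0181. Without pair 2, ALDOC was at -0.00745, GAPDH at 0.0135, PDK3 at -0.0572 and PYGB at -0.00458. Without pair 3, ALDOA was at -0.155, GAPDH at 0.00343, LDHA at 0.0281 and PPP1R3C at -0.186.
Leaving out 1 sample with no block gave the following ranges that include a change of sign: SLC2A1 -0.0404 to 0.0451, HK1 -0.0242 to 0.0124, GPI -0.00862 to 0.0706, PFKFB2 -0.0420 to 0.0880, ALDOA -0.166 to 0.323, ALDOC -0.0451 to 0.0594, GAPDH -0.0295 to 0.0164, ENO1 -0.0849 to 0.00196, ENO2 -0.00254 to 0.0374, LDHA -0.103 to 0.0447, PDK2 -0.0148 to 0.0393, PDK3 -0.0757 to 0.0753, PPP1R3C -0.159 to 0.214 and PYGB -0.0117 to 0.0395. Of the 13 isozyme ratios, 5 did so on the log2 scale: SLC2A1 to SLC2A3 -0.101 to 0.0248, PFKM to PFKP -0.0206 to 0.0335, PFKM to PFKL -0.0379 to 0.00665, PFKFB3 to PFKFB2 -0.0365 to 0.132 and ALDOA to ALDOC -0.125 to 0.29995. For 8 genes of the wider lists, chosen after their values were seen and run in the same way, 131 values kept direction and call and 28 gained a call, with no change of sign. Low counts limit ALDOA, PPP1R3C and PYGL, which have the widest intervals, and HK2 was not tested.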
